A study of Mus musculus with 9 samples.

Results

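Natural killer (NK) cell genes were followed in RNA from mouse brain tumours. The set holds 8 genes picked by name, 6 surface receptors (Ncr1, Klrb1c, Klrd1, Klrc1, Klre1 and Klrk1) and 2 transcription regulators (Eomes and Tbx21), out of 18639 gene entries in each file. All 8 were found, and all 8 passed the filter for testing, which was 1 TPM or more in at least 3 of the 9 libraries. TPM scales transcript abundance by gene length and by library total, so levels can be compared between genes.

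RNA of bulk tumour tissue from mouse brain was sequenced at day 5 after surgical removal of tumours of CT2A, a mouse glioma line. Tumours in the first group (ThTC, 3 libraries) were treated with cells that secrete interferon-beta and GM-CSF, made from CT2A according to the study title. The second group (GFP-TC, 3 libraries) received control cells, and the third (sECM only, 3 libraries) received sECM without cells. All 3 groups carried CT2A tumours, had been resected and were sampled at the same time. The strain, age and sex of the animals, the expansion of sECM and whether each library came from its own animal are not given in the sources used here, so a p-value here reflects library-to-library spread, which may be technical.

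NK cells are innate lymphocytes that kill tumour and virus-infected cells without prior sensitisation. A balance of activating and inhibitory receptors sets their response, and type I interferon and interleukin-15 are known to activate them and sustain them. Ncr1 encodes NKp46, an activating receptor used as a defining NK marker, and Klrb1c encodes NK1.1. Klrd1 encodes CD94, which pairs on the cell surface with the inhibitory receptor NKG2A, the product of Klrc1, to recognise the MHC molecule Qa-1, encoded by H2-T23. Klre1 encodes a lectin-like receptor of the same gene cluster. Klrk1 encodes NKG2D, an activating receptor for stress-induced ligands that signals through the adaptor DAP10, the product of Hcst. Eomes and Tbx21 encode the T-box factors EOMES and T-bet, which direct NK cell maturation. Several of these genes are not limited to NK cells: Klrd1, Klrc1, Klrk1, Eomes and Tbx21 are also known from activated CD8 T cells, Eomes from neural progenitors, and Ncr1 and Klrb1c from related innate lymphoid cells.

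The 5 lectin-like receptor genes lie on chromosome 6 (GRCm38.p6), in the NK gene complex. Klrb1c spans 128778485 to 128788641 on the minus strand. The other 4 lie within 123 kb of each other, with Klre1 at 129559365 to 129585828 and Klrd1 at 129588092 to 129598775 on the plus strand, and Klrk1 at 129610323 to 129623903 and Klrc1 at 129666015 to 129682852 on the minus strand. Ncr1 is on chromosome 7 (4337715 to 4345184, plus strand), Eomes on chromosome 9 (118478186 to 118486132, plus strand) and Tbx21 on chromosome 11 (97098007 to 97115331, minus strand). Some transcripts share sequence with neighbours, which limits how reads can be assigned. Of the 100-base stretches in the coding transcripts of Klrc1 (GENCODE M21), 14.6% also occurred in Klrc2. For Klrb1c 10.8% occurred in Gm44511 or Klrb1a, and for Eomes 0.481% lay in Gm33460 on the opposite strand, while the other 5 genes shared none. The authors' handling of shared reads and of strand is not given in the sources used here, so Klrc1 and Klrb1c are the members whose levels are least certain on this account.

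Promoter sequences are shown because the members varied together across libraries, as described further on. The 250 bases before an annotated transcription start were read from RefSeq (GRCm38.p6) for the 7 members with an entry, and searched on both strands for 4 motifs. The RUNX motif TGTGGT, named for a family of transcription factors of lymphocytes, occurred in 5 of the 7 members and in 14.0% of all 32851 windows of this length. These 5 are receptor genes, and the sixth receptor gene, Klrd1, had no entry. Counted by window, the motif was in 6 of the members' 9 windows. The windows of the Ncr1 starts overlap and hold the same matches, so this count takes that promoter more than once. A single window per gene is printed 5′ to 3′ on the gene's own strand, with the motif (or ACCACA where it lies on the other strand) in capitals. Eomes and Tbx21 held no such match. The T-box half-site GGTGTGA, with which the RUNX motif can overlap, occurred in 0 of the 7 members and in 3.33% of all windows. The STAT motif TTCNNNGAA occurred in 0 of 7 and in 7.02% of all windows, and the interferon-response motif, GAAA followed after any 2 bases by GAAA, in Eomes alone, on the gene's own strand, and in 2.98% of all windows. A match is a run of letters and not evidence of binding.
Ncr1 (chr7:4337465-4337714, plus strand): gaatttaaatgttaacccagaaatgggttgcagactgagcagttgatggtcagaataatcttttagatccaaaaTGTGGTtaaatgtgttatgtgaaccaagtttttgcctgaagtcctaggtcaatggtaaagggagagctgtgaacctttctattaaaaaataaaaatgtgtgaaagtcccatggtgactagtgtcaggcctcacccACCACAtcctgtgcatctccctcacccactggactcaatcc
Klrb1c (chr6:128788642-128788891, minus strand): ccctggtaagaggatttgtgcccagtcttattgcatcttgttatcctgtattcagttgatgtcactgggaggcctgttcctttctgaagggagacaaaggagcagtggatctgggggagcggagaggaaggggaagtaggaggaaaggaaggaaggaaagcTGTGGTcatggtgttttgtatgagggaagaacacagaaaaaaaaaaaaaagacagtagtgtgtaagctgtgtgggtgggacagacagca
Klrc1 (chr6:129678974-129679223, minus strand): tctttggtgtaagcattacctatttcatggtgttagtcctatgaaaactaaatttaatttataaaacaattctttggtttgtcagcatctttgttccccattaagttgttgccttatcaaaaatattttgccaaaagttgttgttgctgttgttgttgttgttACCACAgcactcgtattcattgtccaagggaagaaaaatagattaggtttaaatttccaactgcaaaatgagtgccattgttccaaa
Klre1 (chr6:129577963-129578212, plus strand): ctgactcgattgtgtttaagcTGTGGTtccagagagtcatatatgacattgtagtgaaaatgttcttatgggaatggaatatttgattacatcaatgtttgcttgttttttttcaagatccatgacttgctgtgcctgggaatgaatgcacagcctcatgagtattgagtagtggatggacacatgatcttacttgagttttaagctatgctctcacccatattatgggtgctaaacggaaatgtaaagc
Klrk1 (chr6:129623865-129624114, minus strand): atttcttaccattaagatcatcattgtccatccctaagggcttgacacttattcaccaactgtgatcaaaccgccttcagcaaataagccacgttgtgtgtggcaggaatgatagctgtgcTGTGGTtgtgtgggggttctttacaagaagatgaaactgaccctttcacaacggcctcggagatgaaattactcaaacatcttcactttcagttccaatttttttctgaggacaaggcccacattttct
The first base of the motif lay 176 bases before the Ncr1 start, and 41 bases before it for the match on the other strand. It lay 89 bases before the annotated start of Klrb1c, 87 before that of Klrc1, 229 before one of Klre1 and 129 before that of Klrk1. The Klrc1 window and both Klre1 windows lie inside the gene spans given above. The bases before the outer 5′ ends of Klrc1 and Klre1 were therefore not searched. Klre1 and Ncr1 have a second annotated start each, and the window of the other Klre1 start held no match.

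The libraries differed in marker levels of several cell types, also between libraries of 1 group. The glioma and astrocyte markers summed to 4495 to 5683 TPM in all 9 libraries, mostly from Vim at 3262 to 4753 TPM. Of the 6 genes of this list, 5 had lower means in ThTC than in GFP-TC tumours and 5 lower than in sECM only tumours (median differences of -0.33 in both, on the log2(TPM + 1) scale). Of all 13829 tested genes, 9154 and 7686 had lower means in these comparisons. Without overlap 2 and 3 of the 6 were lower, where 16.9% and 12.1% of all tested genes were. The part of glioma cells and astrocytes in the levels of the NK genes was not tested. The neuron list summed to 97.6, 210 and 1070 TPM in the ThTC libraries, 68.9, 263 and 907 TPM in the GFP-TC libraries and 259, 151 and 175 TPM in the sECM only libraries, each in the order of replicates 1 to 3. The 9 T cell genes summed to 85.5 to 97.0 TPM in ThTC tumours, but to 6.17, 65.6 and 79.3 TPM in GFP-TC tumours and 86.8, 18.6 and 36.1 TPM in sECM only tumours. GFP-TC 1 stood apart: it had the lowest T cell, neuron, and macrophage and microglia sums of the 9 libraries. The 8 NK genes together came to 41.4, 48.6 and 39.6 TPM in ThTC tumours, to 8.22, 30.4 and 33.0 TPM in GFP-TC tumours and to 31.5, 13.3 and 24.1 TPM in sECM only tumours. GFP-TC 1 was the lowest library for 7 of the 8 genes, and sECM only 2 for Klre1, so results are given with and without these libraries. In bulk tissue, fewer NK cells and less RNA per cell cannot be told apart.

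**Figure D1:**
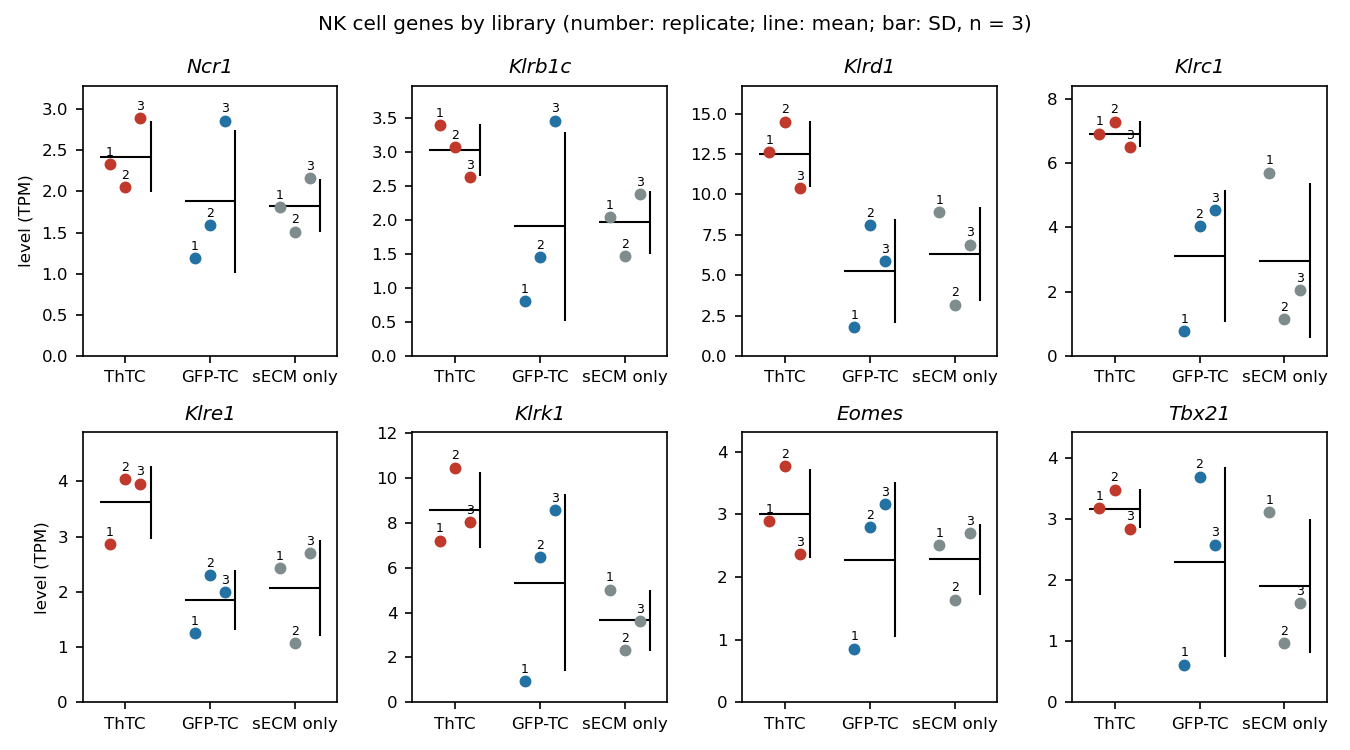
Level in TPM of each of the 8 NK cell genes in every library, with ThTC, GFP-TC and sECM only from left to right. Points are libraries with their replicate number, the horizontal line is the mean and the vertical bar the SD (n = 3). Mean levels were highest with ThTC for all 8 genes, and GFP-TC 1 was the lowest library for all but Klre1.

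The activating receptor Ncr1 was present at a low and even level. It was at 2.33, 2.05 and 2.89 TPM in the ThTC libraries, 1.19, 1.59 and 2.86 TPM in the GFP-TC libraries and 1.81, 1.51 and 2.16 TPM in the sECM only libraries. The groups overlapped in every comparison, and the highest library was only 2.43-fold above the lowest. Klrb1c, the NK1.1 gene, was at 3.39, 3.07 and 2.63 TPM in ThTC tumours, 0.80, 1.45 and 3.46 TPM in GFP-TC tumours and 2.04, 1.47 and 2.38 TPM in sECM only tumours. All 3 ThTC libraries lay above all 3 sECM only libraries, while GFP-TC 3 lay above every ThTC library.

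Klrd1, the CD94 gene, had the highest mean of the members in ThTC and sECM only tumours, and Klrk1 in GFP-TC tumours. Klrd1 reached 12.6, 14.5 and 10.4 TPM in ThTC tumours, against 1.78, 8.10 and 5.86 TPM in GFP-TC tumours and 8.91, 3.18 and 6.89 TPM in sECM only tumours. Every ThTC library exceeded every other library. The gene of its inhibitory partner, Klrc1, was at 6.91, 7.29 and 6.49 TPM in ThTC tumours, 0.76, 4.04 and 4.54 TPM in GFP-TC tumours and 5.70, 1.15 and 2.05 TPM in sECM only tumours, again with no ThTC library inside the range of the others. Klrd1 exceeded Klrc1 in all 9 libraries, by 1.29-fold in GFP-TC 3 to 3.36-fold in sECM only 3. Klrc2, which encodes an activating partner of CD94, stayed at 0.16 to 0.98 TPM and below the filter.

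Klre1 was at 2.86, 4.04 and 3.96 TPM in ThTC tumours, 1.25, 2.30 and 2.00 TPM in GFP-TC tumours and 2.43, 1.07 and 2.70 TPM in sECM only tumours, so the lowest ThTC library stood just above the highest of the other 6. Klrk1, the NKG2D gene, was at 7.20, 10.5 and 8.03 TPM in ThTC tumours, 0.96, 6.47 and 8.57 TPM in GFP-TC tumours and 5.02, 2.32 and 3.63 TPM in sECM only tumours. Its ThTC libraries lay above all sECM only libraries but overlapped with GFP-TC, and its range over the 9 libraries was the widest of the 8 members, at 10.9-fold. Hcst, which encodes the NKG2D adaptor, was at 7.51 to 8.63 TPM in ThTC tumours, 1.15 to 6.88 TPM in GFP-TC tumours and 2.84 to 7.22 TPM in sECM only tumours.

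The groups overlapped in every comparison for both T-box regulators. Eomes was at 2.89, 3.77 and 2.37 TPM in ThTC tumours, 0.86, 2.80 and 3.16 TPM in GFP-TC tumours and 2.51, 1.64 and 2.70 TPM in sECM only tumours. Tbx21 was at 3.18, 3.48 and 2.84 TPM in ThTC tumours, 0.62, 3.69 and 2.58 TPM in GFP-TC tumours and 3.11, 0.97 and 1.62 TPM in sECM only tumours. The lowest library was GFP-TC 1 for both genes. Tbr1, a gene of cortical neurons, was at 15.8 TPM in ThTC 3 and 15.5 TPM in GFP-TC 3, against 0.53 to 3.67 TPM in the other 7 libraries. Eomes, at 2.37 and 3.16 TPM in those 2 libraries, ranked 3 and 8 from the lowest of the 9. The part of neural tissue in the level of Eomes was not tested.

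Setting ThTC against GFP-TC compares cells that secrete the factors with control cells. Whether the cells differ in anything else is not given in the sources used here. All 8 NK genes had a higher mean with ThTC, by 1.29-fold for Ncr1 to 2.38-fold for Klrd1, where 33.8% of all tested genes had a higher mean, but none passed the test. limma, a moderated linear model fitted to log2(TPM + 1) of all 13829 tested genes and all 9 libraries, called 0 of the 8 members and 0% of all genes at an adjusted p of 0.05 (Benjamini-Hochberg over all tested genes). At an unadjusted p under 0.05 there were 2 of 8 members, Klrd1 and Klre1, both higher, where 14.9% of all genes passed that level in either direction, 2.03% of all genes being higher in ThTC. No overlap between the groups was seen for 3 of 8 members, Klrd1, Klrc1 and Klre1, all higher with ThTC, where 2.2% of all tested genes were higher without overlap. The exact two-sided permutation p was 0.1 for each of these 3, the smallest that 3 against 3 libraries allows.

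The mean differences were taken on the log2(TPM + 1) scale, which understates the change of low genes. Klrd1 averaged 12.5 ± 2.05 TPM in ThTC tumours and 5.25 ± 3.20 TPM in GFP-TC tumours (SD, n = 3 each), a difference of 1.26 with a 95% interval of 0.21 to 2.32 (limma adjusted p = 0.32). Klrc1 averaged 6.90 ± 0.40 TPM in ThTC tumours and 3.11 ± 2.05 TPM in GFP-TC tumours, a difference of 1.11 (interval -0.07 to 2.28). Klrk1 averaged 8.56 ± 1.69 TPM in ThTC tumours and 5.33 ± 3.93 TPM in GFP-TC tumours, a difference of 0.87 (interval -0.37 to 2.10). The SD was larger in GFP-TC than in ThTC for all 3 of these receptor genes, and GFP-TC 1 was the lowest library for each.

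Klre1 averaged 3.62 ± 0.66 TPM in ThTC tumours and 1.85 ± 0.54 TPM in GFP-TC tumours, with similar spread in both groups, and differed by 0.71 (interval 0.07 to 1.34; limma adjusted p = 0.32). Klrb1c differed by 0.57 (interval -0.17 to 1.32) and Ncr1 by 0.28 (interval -0.29 to 0.85). For the regulators the difference was 0.47 for Tbx21 (interval -0.48 to 1.41) and 0.36 for Eomes (interval -0.39 to 1.11). The intervals of 6 of the 8 genes thus included 0, and all 8 allowed a difference of at least 0.85. The median over the members was 0.64, beside -0.10 over all tested genes.

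The size of these differences depended on GFP-TC 1. Without GFP-TC 1 the members' median was 0.22, beside -0.21 over all genes, and 7 of 8 had a higher mean with ThTC (23.8% of all genes). Klrd1 was then at 0.76, Klrc1 at 0.58 and Klre1 at 0.54, and these 3 still did not overlap (6.59% of all genes were then higher without overlap). Klrk1 was at 0.16, Tbx21 at 0.02 and Eomes at -0.0025. Without GFP-TC 3 instead, 6 of 8 members did not overlap (6.41% of all genes were then higher without overlap) and the median was 0.84. The main fit is unpaired, and a further limma fit took same-numbered ThTC and GFP-TC libraries as pairs. The meaning of the numbers is not given in the sources used here. Deviations from the group means correlated at 0.74 and 0.87 for numbers 1 and 3, but at 0.12 for number 2. ThTC 2 was closer to GFP-TC 1 (0.38). The difference was largest in pair 1 for all 8 members (0.60 to 2.29), and Ncr1, Klrd1, Klrc1 and Klre1 were higher with ThTC in 3 of 3 pairs, with Klre1 the most even at 0.78, 0.61 and 0.73. The fit by pairs called 0 members, and its lowest adjusted p among them was 0.14, for Klrd1. Since the pairing was read from these same values, counts and p-values by pair are a description only.

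**Figure D2:**
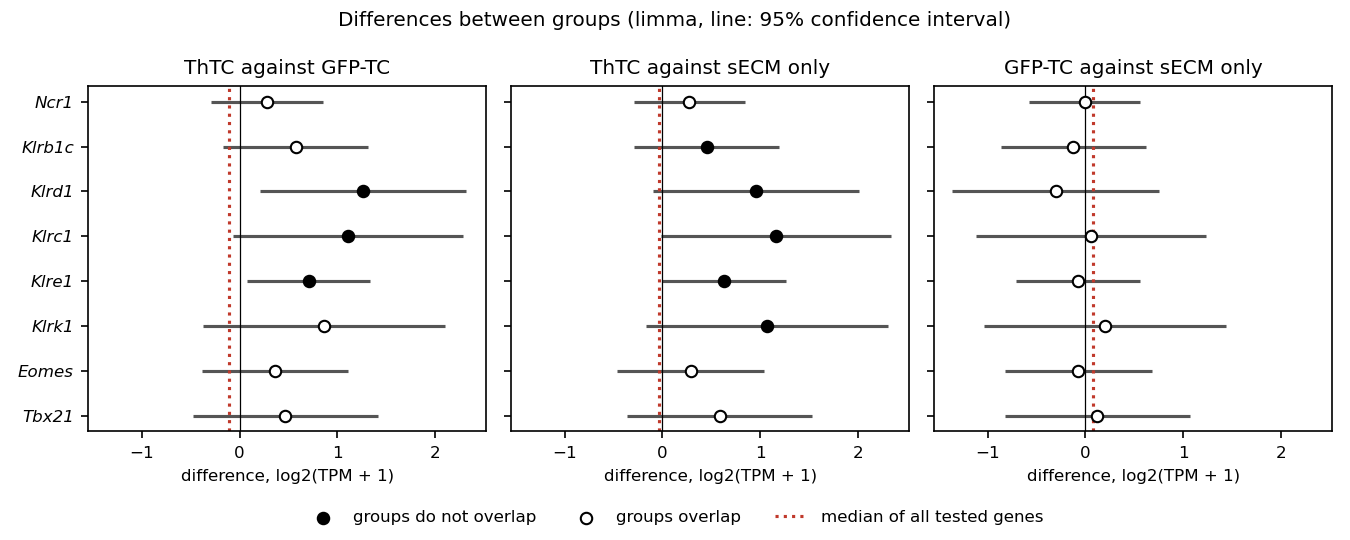
Difference in mean log2(TPM + 1) for each gene in the 3 comparisons, with the 95% confidence interval from limma as a line. Filled points mark genes whose groups did not overlap, and the dotted line is the median of all 13829 tested genes. All 8 points lay right of 0 for ThTC in both of its comparisons, and scattered around 0 for GFP-TC against sECM only.

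ThTC against sECM only covers the cells and their factors together. All 8 genes again had higher means with ThTC, by 1.32-fold for Eomes to 2.34-fold for Klrk1, where 44.4% of all genes had a higher mean, and limma called 0 of 8 members (0% of all genes called). No member had an unadjusted p under 0.05, where 6.9% of all genes did, 1.54% higher and 5.36% lower. Without overlap between the groups were 5 of 8, Klrb1c, Klrd1, Klrc1, Klre1 and Klrk1, all higher with ThTC, where 5.03% of all genes were higher without overlap (exact permutation p = 0.1 each, two-sided). These 5 are the lectin-like receptors of chromosome 6, and the 3 members on other chromosomes overlapped. Other genes of the NK gene complex were mixed. Of the Ly49 (Klra) receptor genes there, Klra7 was also higher without overlap, while Klra2, Klra4 and Klra17 overlapped. Klra17 had a lower mean with ThTC (2.71 against 6.04 TPM). Of 25 tested NK receptor and adaptor genes outside the members, 6 were higher without overlap. A part of gene position was not tested. The same ThTC libraries enter both comparisons, so the counts are not independent.

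Klrc1 averaged 6.90 ± 0.40 TPM in ThTC tumours and 2.97 ± 2.41 TPM in sECM only tumours (SD, n = 3 each), a log2 difference of 1.16 (95% interval -0.01 to 2.33; limma adjusted p = 0.69). Klrk1 averaged 8.56 ± 1.69 TPM in ThTC tumours and 3.66 ± 1.35 TPM in sECM only tumours, a difference of 1.07 (interval -0.17 to 2.30). Klrd1 averaged 12.5 ± 2.05 TPM in ThTC tumours and 6.33 ± 2.91 TPM in sECM only tumours, a difference of 0.96 (interval -0.10 to 2.01). Klrk1 and Klrb1c stood clear of sECM only but not of GFP-TC, a contrast between comparisons that was not tested.

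The remaining differences were 0.63 for Klre1 (interval -0.01 to 1.26), 0.59 for Tbx21, 0.45 for Klrb1c, 0.29 for Eomes and 0.28 for Ncr1. Every interval included 0. The members' median was 0.61, beside -0.03 over all genes. Without sECM only 2 the median was 0.35 and all 8 means were still higher with ThTC (42% of all genes). In that setting 5 members did not overlap (6.7% of all genes were higher without overlap). T cell markers moved in the same direction in both comparisons: all 9 tested T cell genes had higher means with ThTC, with a median difference of 1.02 against GFP-TC and 1.02 against sECM only, as had all 7 macrophage and microglia genes (0.60 and 0.52). The part of T cells in the level of the shared genes was not tested.

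GFP-TC against sECM only asks what the control cells do by themselves. The members lay on both sides of 0 on the log2(TPM + 1) scale, with 3 higher (71.8% of all genes) and 5 lower means and a median difference of -0.04, beside 0.08 over all genes. limma called 0 of 8 (0% of all genes), and no member had an unadjusted p under 0.05, where 0.933% of all genes did, 0.499% higher and 0.434% lower. Without overlap were 0 of 8, where 4.23% of all genes were, 3.15% higher and 1.08% lower. Klrd1 had the lowest difference, at 5.25 ± 3.20 TPM in GFP-TC tumours and 6.33 ± 2.91 TPM in sECM only tumours (SD, n = 3 each), which is -0.30 with a 95% interval of -1.36 to 0.75. Klrk1 had the highest, at 5.33 ± 3.93 TPM in GFP-TC tumours and 3.66 ± 1.35 TPM in sECM only tumours, or 0.20 (interval -1.04 to 1.44). For Klrc1 the interval ran from -1.12 to 1.23, so these data do not show that the levels are alike. Without GFP-TC 1 all 8 members were higher with GFP-TC (median 0.24, beside 0.16 over all genes), where 75.6% of all genes were higher. Without GFP-TC 3 or without sECM only 2 all 8 were lower (medians -0.24 and -0.24), where 58.4% and 66.4% of all genes were higher. The order of these 2 groups was therefore not settled for any member, while ThTC had the highest mean for each.

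The members varied together over the 9 libraries. Of the 28 pairs of members, 21 correlated at an adjusted p under 0.05 (exact two-sided permutation test of Pearson's r, Benjamini-Hochberg over 28 pairs), with r between 0.55 and 0.94 and a median of 0.83. Of all pairs of tested genes, 24.3% had an r of at least the lowest of these and 5.95% an r of at least their median, so joint variation was common in these libraries. Fewer member pairs passed by Spearman's rho, adjusted in the same way. These were Klrd1 with Klrc1, Klre1 and Tbx21, Klrc1 with Klre1 and Klrk1, Klrk1 with Klrb1c and Eomes, and Ncr1 with Klrb1c. The permutations treat the libraries as exchangeable and take no account of the pairing of ThTC with GFP-TC libraries or of the groups. The CD94 and NKG2A genes Klrd1 and Klrc1 had r = 0.94 and Spearman's rho = 0.95 (exact permutation p = 0.00028 and 0.00035, adjusted 0.0049 and 0.0099), and r = 0.75 without GFP-TC 1 and sECM only 2, the libraries farthest from the median. Ncr1 and Klrb1c had r = 0.89 and rho = 0.85 (exact permutation p = 0.0013 and 0.0061, adjusted 0.0049 and 0.034), and r = 0.91 without GFP-TC 1 and ThTC 3. Ncr1 and Tbx21 were the least alike, with r = 0.55 and rho = 0.25 (exact permutation p = 0.13 and 0.52, adjusted the same), and r = 0.21 without GFP-TC 1 and ThTC 3. The joint pattern leaned on the lowest libraries: by Pearson's r, 7 pairs passed without GFP-TC 1 and 11 without sECM only 2. After the group means were subtracted 14 pairs passed. All points share their library totals, since TPM is relative to the rest of the library.

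The members differed in how widely they ranged over the libraries. The highest library exceeded the lowest by 2.43-fold for Ncr1, 3.78-fold for Klre1, 4.33-fold for Klrb1c, 4.38-fold for Eomes and 5.95-fold for Tbx21, and by 8.14-fold for Klrd1, 9.59-fold for Klrc1 and 10.9-fold for Klrk1. For the T cell receptor complex gene Cd3e it was 14.5-fold, with 12.4, 11.6 and 13.2 TPM in ThTC, 0.91, 10.8 and 11.6 TPM in GFP-TC and 12.5, 2.69 and 4.27 TPM in sECM only libraries. Cd8a, the CD8 T cell gene, was highest in ThTC 3 (15.3 TPM) and lowest in GFP-TC 1 (0.71 TPM), as was Cd4 (4.09 and 1.02 TPM). Ncr1, Klrb1c and Klre1 together made up 39.4% of the members' summed TPM in GFP-TC 1 and 30.4% and 30.004% in sECM only 2 and 3, the libraries with the lowest T cell sums. In the other 6 libraries they made up 17.5% to 25.2%. These are the 3 members with the narrowest ranges, so their share is bound to be higher where the wider-ranging members are low. The ratio of Ncr1 to Cd3e was 1.31 in GFP-TC 1, 0.56 in sECM only 2, 0.51 in sECM only 3 and 0.14 to 0.25 in the rest. Cd3e ranged more widely than Ncr1, so this ratio is likewise bound to rise where Cd3e is low. The share and the ratio were not among the planned results, and which cells the members came from was not tested.

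**Figure D3:**
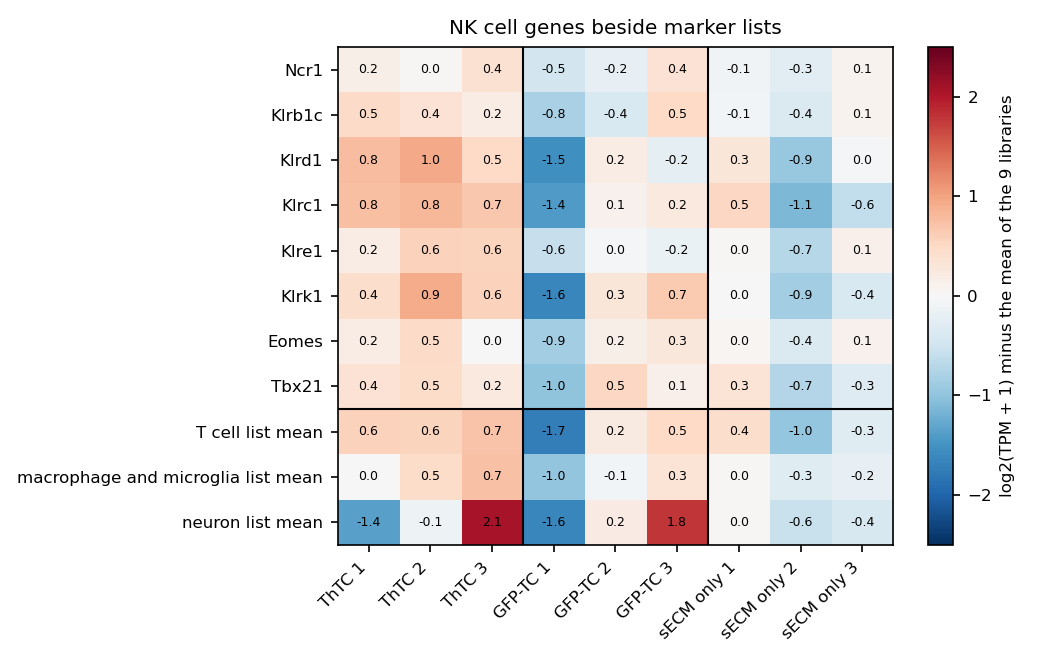
Level of each NK cell gene, and the mean of the tested genes of 3 marker lists, in every library as log2(TPM + 1) minus the mean of the 9 libraries. Red is above and blue below the mean, with ThTC, GFP-TC and sECM only from left to right. GFP-TC 1 and sECM only 2 were low for the NK genes and for the T cell list, while the neuron list was highest in ThTC 3 and GFP-TC 3.

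All 8 members correlated with the mean level of the T cell list by Pearson's r, at 0.78 to 0.96. Each had an adjusted p under 0.05 (exact permutation test, 24 relations of members with 3 marker lists in the same family, of which 17 passed). By Spearman's rho only Ncr1, Klrd1, Klrc1 and Klrk1 passed, and Tbx21 had rho = 0.60 (exact permutation p = 0.097, adjusted 0.17). Of the 13820 tested genes outside the T cell list, 5.91% had an r with it at or above the lowest of the 8 members. Klrc1 followed it most closely, with r = 0.96 and rho = 0.92 (exact permutation p = 8.5e-05 and 0.0013, adjusted 0.0021 and 0.024), and r = 0.94 without GFP-TC 1 and sECM only 2. Klrk1 had r = 0.96 and rho = 0.85 (exact permutation p = 0.00034 and 0.0061, adjusted 0.0027 and 0.033), and r = 0.81 without these libraries. Ncr1 had r = 0.78 and rho = 0.83 (exact permutation p = 0.0097 and 0.0083, adjusted 0.018 and 0.033), and r = 0.55 without GFP-TC 1 and ThTC 3. For Eomes, r = 0.89 (exact permutation p = 0.0062, adjusted 0.016) came with rho = 0.55 (exact permutation p = 0.13, adjusted 0.18), and r was 0.12 without GFP-TC 1 and sECM only 2, on which that relation rests.

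The macrophage and microglia list was also related to all 8 members by Pearson's r (between 0.77 and 0.92), where 12.3% of the genes outside that list reached the lowest of these values. Klrk1 was the closest (r = 0.92, rho = 0.90, exact permutation p = 0.00029 and 0.0020, adjusted 0.0027 and 0.024), with r = 0.76 without GFP-TC 1 and sECM only 2. By Spearman's rho only Klrc1 and Klrk1 passed. Eomes and Tbx21 had rho = 0.55 each (exact permutation p = 0.13, adjusted 0.18). Without GFP-TC 1 and sECM only 2 their r was 0.12 and 0.28. The neuron list was related to 1 of 8, Ncr1, with r = 0.72 and rho = 0.58 (exact permutation p = 0.027 and 0.11, adjusted 0.039 and 0.17), and r = 0.41 without GFP-TC 1 and ThTC 3. For Eomes against the neuron list r was 0.44 and rho 0.30 (exact permutation p = 0.23 and 0.44, adjusted 0.25 and 0.46), and -0.21 without GFP-TC 1 and sECM only 2. Of the 24 relations, 2 passed by Pearson's r without GFP-TC 1, 8 without sECM only 2 and 9 after the group means were subtracted.

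**Figure D4:**
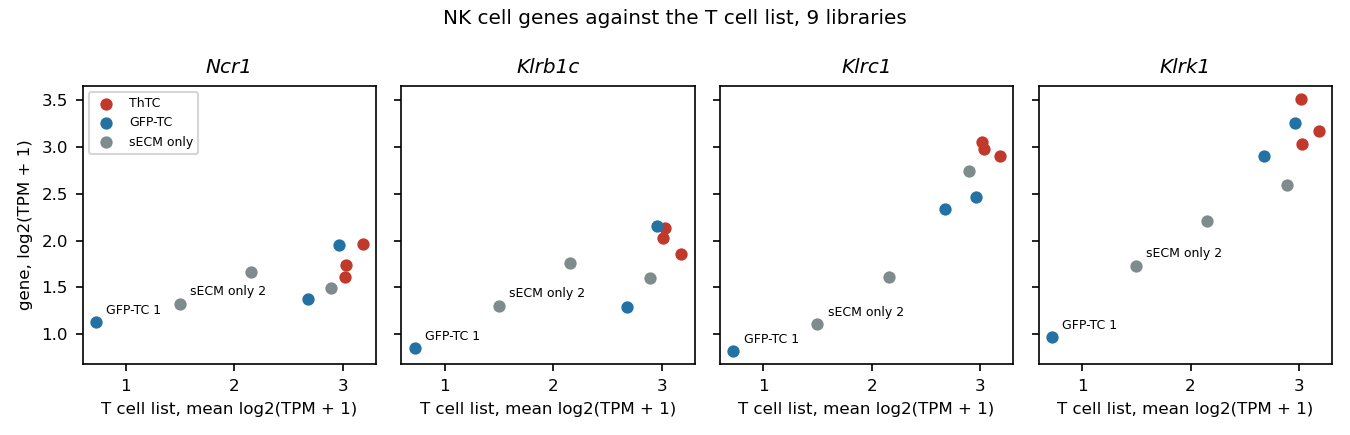
Level of 4 NK cell genes against the mean level of the 9 T cell genes, both as log2(TPM + 1), with 1 point per library and ThTC, GFP-TC and sECM only in different colours. Klrc1 and Klrk1 climbed steeply with the T cell list (r = 0.96 each), and Ncr1 (r = 0.78) spanned a narrower range. GFP-TC 1 and sECM only 2 lie at the low end of the T cell list in every panel.

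Genes with the most similar pattern were sought among all tested genes that are not members, with Pearson's r over the 9 libraries of log2(TPM + 1) as the measure and as a description only. For the mean of the 8 members these were Ncf4 (r = 0.98), Pstpip1 (0.98), Sh2d2a (0.98), Lck (0.98) and Nkg7 (0.97), from the closest down. Which cells these genes came from was not tested. Ncf4 was at 34.5, 38.5 and 38.3 TPM in ThTC tumours. It was at 15.1, 28.7 and 30.6 TPM in GFP-TC tumours and 30.9, 20.6 and 24.3 TPM in sECM only tumours. Pstpip1 was at 15.5, 21.2 and 19.5 TPM in ThTC tumours. It was at 5.07, 15.6 and 16.6 TPM in GFP-TC tumours and 15.6, 7.5 and 12.2 TPM in sECM only tumours. Nkg7 encodes a granule protein of NK and T cells, and was at 69.7, 66.2 and 66.6 TPM in ThTC tumours, 6.05, 40.3 and 59.1 TPM in GFP-TC tumours and 59.3, 17.8 and 28.6 TPM in sECM only tumours. Lck encodes a kinase of T and NK cells, and was at 14.1, 13.6 and 15.1 TPM in ThTC tumours, 2.24, 10.5 and 11.01 TPM in GFP-TC tumours and 12.7, 4.71 and 8.17 TPM in sECM only tumours. By member, the closest gene was Phf11a for Ncr1 (0.96), Vegfd for Klrb1c (0.96), Lat2 for Klrd1 (0.96), Ptprcap for Klrc1 (0.99), Psmb9 for Klre1 (0.97), C1ra for Klrk1 (0.99), Tgfbi for Eomes (0.98) and Tbc1d10c for Tbx21 (0.98).

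Other genes of NK biology were counted from lists of receptors, ligands, cytokines, effectors and regulators, and 0 of them passed in limma in any comparison. Of 25 tested NK receptor and adaptor genes, 20 had higher means with ThTC than with GFP-TC and 22 higher than with sECM only (median differences 0.51 and 0.44). Tyrobp, which encodes the adaptor DAP12 of NK and myeloid cells, averaged 528 ± 115 TPM in ThTC tumours, 246 ± 79.6 TPM in GFP-TC tumours and 284 ± 49.9 TPM in sECM only tumours (limma adjusted p = 0.32 and 0.69). The limma fit by pairs, a pairing read from these same values, gave Tyrobp an adjusted p of 0.022 against GFP-TC. With the numbers as blocks over all 9 libraries, its limma adjusted p was 0.37. Fcgr3, an Fc receptor gene of NK cells and macrophages, averaged 197 ± 37.6 TPM in ThTC tumours, 95.3 ± 40.6 TPM in GFP-TC tumours and 121 ± 4.34 TPM in sECM only tumours. Neither gene overlapped between ThTC and the other groups, and both are known from macrophages, whose 7 listed genes all had higher means in ThTC; the part of macrophages in these values was not tested.

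Among the ligands, H2-T23, the gene of the CD94 and NKG2A ligand Qa-1, averaged 355 ± 67.6 TPM in ThTC tumours, 230 ± 95.2 TPM in GFP-TC tumours and 201 ± 36.0 TPM in sECM only tumours, and did not overlap between ThTC and sECM only (limma adjusted p = 0.35 and 0.69). The tested NKG2D ligand genes were Raet1d, Raet1e, Ulbp1 and H60b. Ulbp1 averaged 48.4 ± 4.36 TPM in ThTC tumours and 55.9 ± 10.4 TPM in sECM only tumours, and H60b averaged 2.20 ± 0.26 TPM in ThTC tumours and 1.82 ± 0.75 TPM in GFP-TC tumours. Raet1d averaged 9.99 ± 1.02 TPM in GFP-TC tumours and 10.97 ± 1.19 TPM in sECM only tumours. The median difference of the 5 tested ligand genes was 0.0018 against GFP-TC and 0.0041 against sECM only.

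Of 13 tested genes for cytokines and receptors that act on NK cells, 11 had higher means with ThTC in each of its comparisons (median differences 0.55 against GFP-TC and 0.53 against sECM only). Il15, the gene of the cytokine that sustains NK cells, was at 16.2, 19.1 and 18.8 TPM in ThTC tumours, 11.1, 12.1 and 12.8 TPM in GFP-TC tumours and 14.0, 7.46 and 17.0 TPM in sECM only tumours. It did not overlap between ThTC and GFP-TC, with a difference of 0.55 (95% interval -0.03 to 1.12; limma adjusted p = 0.35), and of 0.50 without GFP-TC 1. Il12rb2, a subunit gene of the interleukin-12 receptor, averaged 2.62 ± 0.55 TPM in ThTC tumours and 1.65 ± 1.21 TPM in GFP-TC tumours. Il18, the gene of an NK-activating cytokine, averaged 12.1 ± 6.26 TPM in ThTC tumours and 6.62 ± 0.94 TPM in sECM only tumours. Among 13 effector genes 11 were higher with ThTC in each comparison (medians 0.52 and 0.66), with the granzyme gene Gzma at 52.7 ± 14.5 TPM in ThTC tumours and 19.1 ± 12.2 TPM in GFP-TC tumours. Serpinb9, which encodes an inhibitor of granzyme B, averaged 26.1 ± 5.85 TPM in ThTC tumours and 16.1 ± 3.34 TPM in sECM only tumours, and did not overlap. Xcl1, a chemokine gene of NK and CD8 T cells, averaged 9.14 ± 2.14 TPM in ThTC tumours and 5.76 ± 1.93 TPM in sECM only tumours.

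Of the 14 tested transcription regulators, 8 had higher and 6 lower means in ThTC than in GFP-TC (median 0.20), and 7 of each than in sECM only (median 0.07). Ets1, a regulator of early NK cell development that many other cells express, had lower means with ThTC, at 46.3 ± 1.83 TPM against 60.2 ± 5.03 TPM in GFP-TC tumours and 55.2 ± 4.36 TPM in sECM only tumours, without overlap in either comparison (limma adjusted p = 0.32 and 0.69). Batf averaged 7.12 ± 1.62 TPM in ThTC tumours and 4.10 ± 2.07 TPM in GFP-TC tumours, and Bhlhe40 averaged 104 ± 19.1 TPM in ThTC tumours and 154 ± 31.8 TPM in sECM only tumours. Between GFP-TC and sECM only, Klra17 of the Ly49 receptor family had the smallest p of the receptor list, at 1.43 ± 0.86 TPM in GFP-TC tumours and 6.04 ± 4.21 TPM in sECM only tumours (limma adjusted p = 0.997), and the groups did not overlap. The other genes named by rule for that pair were within overlapping ranges: Zeb2, Ccl3, Ifnar2 and Il18rap had higher means in GFP-TC, and Klrb1b, Batf, H60b and Gzma lower ones.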

How the data were processed

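Total RNA of 9 libraries was sequenced on a DNBseq instrument at 4.47 Gb of bases each, per the labels' protocols. The deposited values are TPM per gene with 2 decimals, per the file headers. The submitters' processing notes name HISAT, with no version, and the builds GRCm38.p6 and mm10. The quantification tool and annotation are not given in the sources used here. Since TPM keeps no depth, no count model or counting interval was used.

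Values were analysed as log2(TPM + 1) in limma 3.58.1 (R 4.3.3) with an intensity trend, all 9 libraries in one fit, and Benjamini-Hochberg adjustment over 13829 genes at 0.05. The fit was tested on simulated data. Single genes were compared by exact permutation tests, and correlations by exact permutation of pairings (Python 3.11.15). GFP-TC and ThTC deviations from the group means correlated at 0.74, 0.12 and 0.87 for numbers 1, 2 and 3. The main fit took no account of the numbers, and a further fit treated same numbers as pairs. The pairing comes from these values and not from the labels. Alternatives were 2 pseudocounts, 2 filters, 2 scalings, fewer libraries, replicate blocks and sample weights.

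The members and lists were chosen with earlier results of these data known. Named genes were the 8 members, the 2 smallest p per pathway list and comparison, and the most similar patterns. Hcst, Klrc2, Tbr1, the Klra genes of the ThTC against sECM only and closing sections and the correlated pairs were chosen after their values were seen.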

Additional observations from a re-analysis of the deposited data

How the results depend on the processing

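In limma 0 of 8 members were called in each comparison under every alternative but sample quality weights, whose fit stopped before reaching its tolerance. These weights called 3 of 8 members and 5866 of 13829 genes for ThTC against GFP-TC, so the members' share did not exceed that of all genes. For ThTC against sECM only they called 5 of 8 members and 2582 of 13829 genes. The replicate block over the 6 GFP-TC and ThTC libraries called 8 genes and 0 members, and the block over all 9 libraries called 1 gene for GFP-TC against sECM only; the block changed no other call of a member, and Tyrobp alone among the other named genes. With a library left out, 0 to 0, 0 to 1 and 0 to 1 genes were called for ThTC against GFP-TC, ThTC against sECM only and GFP-TC against sECM only. The members without overlap, in either direction, were 3 to 6, 5 to 7 and 0 to 2 in these comparisons. The 6 came without GFP-TC 3, the 7 without ThTC 3 and the 2 without GFP-TC 1, all higher. In these settings 6.41%, 7.11% and 31.7% of all genes were higher without overlap, and in any setting up to 6.96%, 15.4% and 31.7%. For GFP-TC against sECM only, 1 member was lower without overlap when GFP-TC 3 or sECM only 2 was left out. By Pearson's r, the correlated member pairs were 7 to 25, and the relations with marker lists 2 to 18, with 9 after centring on group means. The cause was not tested.

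Median-of-ratios scaling moved the median of all genes by 0.13 for ThTC against GFP-TC, and the 8 members were still higher (median 0.74). Signs of the ThTC differences held under every alternative except for Eomes against GFP-TC with a library left out (-0.0025 to 0.58). For GFP-TC against sECM only, signs changed with median-of-ratios scaling for Klrc1 (-0.026) and Ifnar2 (-0.0007), with quantile scaling for Klrc1 (-0.10) and Tbx21 (-0.011), and with weights for Ncr1 (0.026), Klrd1 (0.28), Klre1 (0.18) and Eomes (0.23). With a library left out they ran from -0.24 to 0.17 for Ncr1, -0.48 to 0.17 for Klrb1c, -0.66 to 0.20 for Klrd1, -0.30 to 0.58 for Klrc1, -0.34 to 0.082 for Klre1, -0.24 to 0.90 for Klrk1, -0.29 to 0.29 for Eomes and -0.20 to 0.57 for Tbx21. TPM files do not give the reads behind levels of 1 to 3 TPM, so the counting error of Ncr1, Eomes and Tbx21 is unknown.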

Other observations

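In the Ly49 family, another receptor family of the NK gene complex, Klra4 had a different pattern from the 8 genes. Of the 11 listed Klra genes, 6 were lowest in GFP-TC 1, as 7 of the 8 members were, and 2 more were tied for lowest there. One of the tied genes, Klra10, was at 0 TPM in most libraries. Klra4, Klra6 and Klra9 were lowest in sECM only 2, as was the member Klre1. The share of all genes that were lowest in GFP-TC 1 was not counted. Klra4 was at 26.3, 28.6 and 16.7 TPM in ThTC tumours, 24.01, 17.2 and 16.3 TPM in GFP-TC tumours and 19.9, 15.0 and 17.3 TPM in sECM only tumours. It was the most abundant of the listed Klra genes except in ThTC 3 and GFP-TC 3, where Klra2 was. In GFP-TC 1 Klra4 exceeded its level in every sECM only library. Klra2 was at 11.98, 18.4 and 20.4 TPM in ThTC tumours, 5.29, 9.15 and 17.4 TPM in GFP-TC tumours and 13.5, 6.51 and 16.3 TPM in sECM only tumours. Klra8 and Klra7 were low, at 0.40 to 3.21 and 0.62 to 3.37 TPM over the 9 libraries. Klra4, Klra2, Klra7 and Klra8 were singled out after their values were seen, and the close similarity of Ly49 genes to each other makes the split of reads among them uncertain.

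Klrb1b, an inhibitory relative of Klrb1c, was more abundant than Klrb1c in every library, at 9.14, 10.5 and 14.9 TPM in ThTC tumours, 3.72, 7.36 and 12.3 TPM in GFP-TC tumours and 10.3, 7.39 and 21.2 TPM in sECM only tumours. Its highest level was in sECM only 3, which was the highest library for none of the 8 members.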
